A study of Homo sapiens with 4 samples.

Results

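Of the 60608 fixed 50 kb windows on chromosomes 1 to 22 and X, 646 (1.07%, 95% Wilson interval 0.987 to 1.15) carried H3K27ac after daunorubicin and none in untreated cells. Each of them held the midpoints of 3 or more peaks of the daunorubicin H3K27ac library and overlapped no peak of the untreated H3K27ac library. These windows are called daunorubicin-only windows here. They were chosen by the peak lists of both libraries, so their numbers of peaks in either library are a description, with no test. The cells were K562, a human line from chronic myeloid leukaemia in blast crisis. They were either given 1 uM daunorubicin for 18 h or left untreated for the same time. Each condition had 1 H3K27ac library and 1 input library, which was made without an antibody, so nothing below has a replicate check or a p-value. The series concerned enhancers induced by daunorubicin and linked to drug resistance in acute myeloid leukaemia, and K562 is a single line of another myeloid leukaemia.

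H3K27ac is acetylation of lysine 27 on histone H3. It is laid down by the acetyltransferases p300 and CBP at active promoters and enhancers, and it is lost as histone deacetylases act. Enhancers often lie in groups of several marked sites inside introns or between genes, at a distance from the promoters they act on. Daunorubicin is an anthracycline that intercalates into DNA, poisons topoisomerase II and can evict histones from chromatin.

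Most daunorubicin-only windows held no start of a protein-coding gene, but at 57 genes a peak of such a window lay within 1 kb of an annotated start. The promoters of 6 of these genes are shown because the peak covered the start itself and its score was among the 10 highest of that group. FBXW7 encodes the substrate-binding subunit of a ubiquitin ligase that marks cyclin E and MYC for degradation (chr4:152352777-152353076, minus strand). FLVCR2 encodes a membrane transporter (chr14:75605290-75605589, plus strand), and TMEM154 a membrane protein (chr4:152679948-152680247, minus strand). RBM47 encodes an RNA-binding protein (chr4:40629815-40630114, minus strand). JHY is named for a mouse gene whose loss gives hydrocephalus (chr11:122882509-122882808, plus strand). IFI16 encodes an interferon-inducible sensor of DNA (chr1:159009657-159009956, plus strand). The sequences are from RefSeq on GRCh38.p14 and run 5′ to 3′ on the strand of the gene, from 250 bases before the start to 50 after it. Capitals mark matches on either strand to 4 patterns. The AP-1 pattern was TGANTCA, and the pattern of GATA factors was AGATAA. The pattern of the box bound by TBP was TATAAA, and that of the box bound by the factor NF-Y was CCAAT.
FBXW7 promoter: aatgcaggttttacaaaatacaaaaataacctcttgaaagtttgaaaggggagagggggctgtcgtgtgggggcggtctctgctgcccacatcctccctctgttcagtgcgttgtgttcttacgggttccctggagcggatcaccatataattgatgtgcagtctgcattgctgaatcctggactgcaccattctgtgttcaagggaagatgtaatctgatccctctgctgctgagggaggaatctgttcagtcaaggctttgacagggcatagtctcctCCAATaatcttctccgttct
FLVCR2 promoter: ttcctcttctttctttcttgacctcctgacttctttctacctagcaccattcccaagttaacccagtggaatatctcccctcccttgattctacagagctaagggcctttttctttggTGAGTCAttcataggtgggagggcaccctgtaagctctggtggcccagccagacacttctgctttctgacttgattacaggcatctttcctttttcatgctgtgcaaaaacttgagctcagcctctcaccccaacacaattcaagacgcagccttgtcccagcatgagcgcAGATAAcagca
TMEM154 promoter: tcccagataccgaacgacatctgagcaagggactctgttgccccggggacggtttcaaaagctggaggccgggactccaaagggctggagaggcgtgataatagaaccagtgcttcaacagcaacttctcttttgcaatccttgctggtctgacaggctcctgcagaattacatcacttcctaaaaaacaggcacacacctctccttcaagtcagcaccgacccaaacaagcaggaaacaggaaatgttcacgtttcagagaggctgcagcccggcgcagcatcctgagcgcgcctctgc
RBM47 promoter: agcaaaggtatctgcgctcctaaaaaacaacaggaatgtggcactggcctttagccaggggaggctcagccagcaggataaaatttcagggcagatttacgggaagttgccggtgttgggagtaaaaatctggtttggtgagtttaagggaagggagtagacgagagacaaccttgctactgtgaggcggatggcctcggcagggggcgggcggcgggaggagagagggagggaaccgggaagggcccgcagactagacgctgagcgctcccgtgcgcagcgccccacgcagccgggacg
JHY promoter: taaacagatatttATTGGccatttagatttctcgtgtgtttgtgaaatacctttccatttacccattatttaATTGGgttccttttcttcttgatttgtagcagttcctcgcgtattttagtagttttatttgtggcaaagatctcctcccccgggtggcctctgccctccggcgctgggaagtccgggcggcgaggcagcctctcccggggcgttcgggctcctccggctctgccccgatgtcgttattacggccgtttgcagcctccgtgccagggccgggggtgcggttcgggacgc
IFI16 promoter: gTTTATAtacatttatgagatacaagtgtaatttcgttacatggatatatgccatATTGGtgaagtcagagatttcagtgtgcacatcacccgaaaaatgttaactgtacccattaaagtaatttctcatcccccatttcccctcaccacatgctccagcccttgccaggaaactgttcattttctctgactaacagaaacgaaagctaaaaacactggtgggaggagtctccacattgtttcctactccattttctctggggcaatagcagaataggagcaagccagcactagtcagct

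Each motif was searched on both strands, and a match to one pattern may share bases with a match to another. In these 6 windows of 300 bases, FLVCR2 held an AP-1 and a GATA match, IFI16 a TATAAA and a CCAAT match, JHY 2 CCAAT matches and FBXW7 1. The promoters of TMEM154 and RBM47 held none of the 4 patterns. Over the 75 starts with a daunorubicin-only window peak within 1 kb, which belong to the 57 genes and in part overlap, AP-1 was found in 9.33% (95% Wilson interval 4.59 to 18.0). Of all 22132 annotated protein-coding promoters, 6.15% held it, and of the 12614 marked in both libraries 4.09%. The GATA pattern stood at 8.0% (3.72 to 16.4) of the 75 starts, against 7.88% of all promoters and 4.78% of those marked in both libraries. TATAAA was found at 14.7% (8.39 to 24.4) of the 75 starts, at 9.46% of all promoters and at 4.99% of those marked in both. CCAAT was found in 33.3% (23.7 to 44.6), 34.6% and 35.2% of the same sets. The 75 starts had a median of 14 CpG per 300 bases, against 21 in all promoters and 27 in those marked in both libraries, and a median GC content of 56.3%, against 62.3% and 66.0%. The intervals cover counting error only, and for each of the 4 patterns the interval at the 75 starts contained the share of all promoters.

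The peak at FBXW7 had the highest score of those at a start, 126, and lay at 152352174 to 152353177 on chromosome 4. The score is the authors' own value for each peak, of unknown formula, and it ranks peaks within 1 list only. The start it covered was not the only one of FBXW7, and another start carried an untreated peak. The covered start lay 111179 bp from the nearest untreated peak. A second FBXW7 start in the same window was covered by a peak of score 20. The RBM47 peak (40629602 to 40629886, score 68) was likewise at one of several starts, and another start of RBM47 carried an untreated peak. The other 4 printed genes had no start marked in untreated cells. Their peaks scored 90 at FLVCR2, 74 at TMEM154, 57 at JHY and 54 at IFI16, and the nearest untreated peaks lay 55202 bp, 99286 bp, 126272 bp and 66222 bp from those starts.

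In all, 15 of the 57 genes had another start with an untreated peak within 1 kb, and at 32 genes a peak covered a start. The other genes among the 20 with the highest-scoring start peaks were of many kinds. The peaks at the homeobox gene BARHL2 and at the orphan nuclear receptor gene NR2F1 scored 37 and 52, and the one at WNT9A, a secreted signalling protein gene, 47. SAMSN1, a haematopoietic adaptor, had a peak of 1157 bp over a start (14616151 to 14617307 on chromosome 21, score 45), and another of its starts carried an untreated peak. CNR1, the neuronal cannabinoid receptor gene, and AVPR1B, a vasopressin receptor gene, had start peaks of score 44 and 42. The nearest untreated peak was 408821 bp from the covered CNR1 start, 321906 bp from the NR2F1 start and 23387 bp from the AVPR1B start. MS4A4E (41), PAK6 (47), IQGAP2 (44), FGD4 (40) and TNFRSF11A, the receptor of the osteoclast factor RANKL (39), were also named by that rank of peak score. So were CLUL1 (81), SERTAD4 (57) and DEFB129 (54). Of these genes, IQGAP2, FGD4 and CLUL1 had another start with an untreated peak.

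The daunorubicin H3K27ac list held 65008 peaks on chromosomes 1 to 22 and X, covering 56.9 Mb, and the untreated list 38539 peaks covering 35.9 Mb, a ratio of 1.69 in peak number. The input lists of the 2 conditions held 60 and 66 peaks there, and 1 of the 646 windows overlapped an input peak. Of 10 genes that mark erythroleukaemic K562 cells, 10 carried a peak within 1 kb of a gene end in daunorubicin-treated cells and 9 (all but HBG2) in untreated cells. Of 10 genes chosen as silent in K562, 4 were marked with daunorubicin (CD3E, SPI1, PTPRC and ALB) and 3 without it (the first 3). No share of all genes is given beside these marked counts. No gene of either marker list lay within 50 kb of a daunorubicin-only window. Of all protein-coding genes only 5.08% (1014 of 19974) lay that near, so with 10 genes per list this absence says little about the markers. The lists give no read counts, and library depth is therefore unknown.

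The same rule with the libraries exchanged, 3 or more untreated peaks and no daunorubicin peak, gave 5 windows of 60608 (0.00825%, 0.00352 to 0.0193). They included windows at MAD1L1, KCNN1 and DUSP9. Of the windows with 3 or more daunorubicin peaks, 646 of 10434 (6.19%) had no untreated peak, and of those with 3 or more untreated peaks, 5 of 5363 (0.0932%) had no daunorubicin peak. The share of windows without an untreated peak was 47.4% at 1 daunorubicin peak, 23.8% at 2, 11.2% at 3, 5.55% at 4, 3.22% at 5, 1.72% at 6 and 0.482% at 7, and no window with 8 or more lacked one. The 646 windows held 3 peaks in 418 cases, 4 in 152, 5 in 55, 6 in 18 and 7 in 3. When peaks with a gap of up to 1 kb were joined into 1, only 450 of the 646 (69.7%) still held 3 or more. In the rest the count of 3 rested on peaks that close together. Just outside the threshold were 1258 windows with 2 daunorubicin peaks and no untreated peak, and 1963 windows with 3 or more daunorubicin peaks and exactly 1 untreated peak, whose median score was 48.

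**Figure D1:**
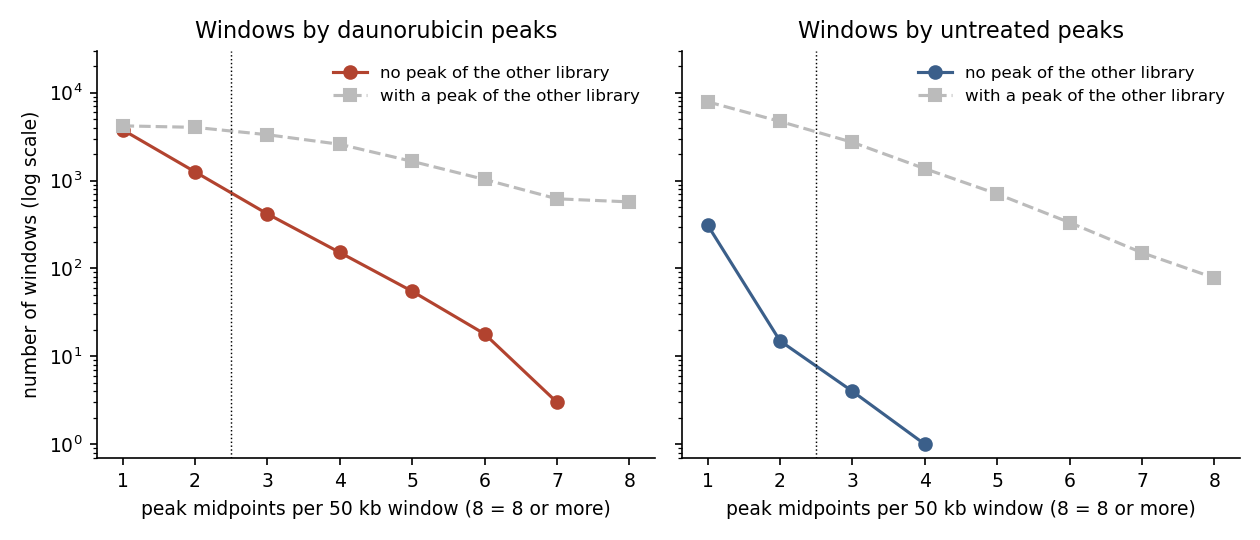
Number of 50 kb windows (log scale) against the number of peak midpoints they hold, by daunorubicin peaks on the left and by untreated peaks on the right. Filled circles are windows with no peak of the other library, grey squares those with one, and the dotted line marks the threshold of 3: to its right lie 646 daunorubicin-only windows on the left and 5 windows on the right.

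How many windows met the rule depended on the length of the daunorubicin list. With the 60000 highest-scoring daunorubicin peaks against all untreated peaks the count was 475, and with 55000, 50000 and 45000 it was 339, 219 and 126, while the windows of the exchanged rule numbered 8, 9, 14 and 25. With equal numbers of the 38539 highest-scoring peaks in both lists, 62 windows met the rule and 52 met the exchanged rule. All 62 were among the 646 (9.60% of them). They included the windows of IL2RA, RHEX and AVPR1B, MACF1, ARHGAP25, CUBN and TRDMT1, TTLL11, IL12B, IFI16, JHY, SERTAD4 and SAMSN1. Many windows described in this text were not kept. No window of FBXW7, FLVCR2, TMEM154, RBM47, PKN2, KDM6A, KMT2C, TIAM2 or SYNE1 was among the 62. Of the run of windows at LY9, CD244, ITLN1 and ITLN2, only the one at ITLN2 was. The large excess over the exchanged rule was thus present in the full lists and nearly absent at equal length, and depth, enrichment and treatment cannot be told apart as sources of the longer list.

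**Figure D2:**
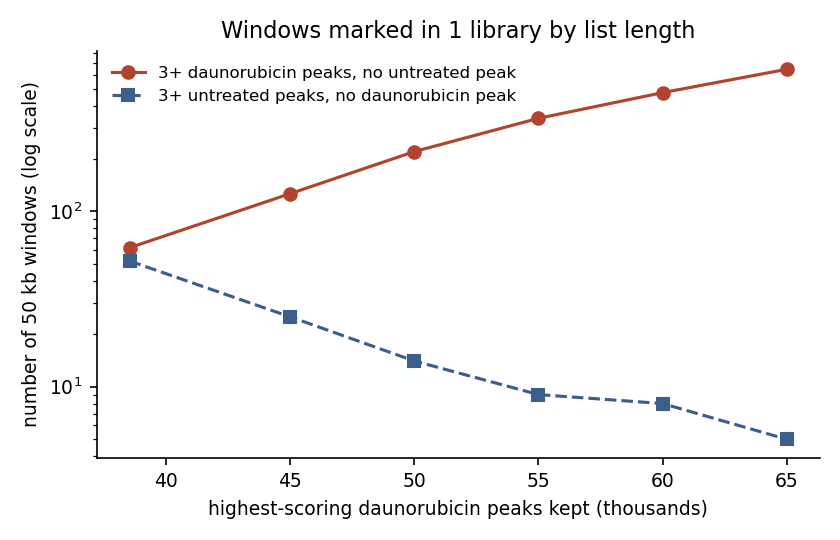
Number of 50 kb windows (log scale) that met the rule (circles) and the rule with the libraries exchanged (squares), against the number of highest-scoring daunorubicin peaks kept, with all untreated peaks. The counts are 646 and 5 with the full list and 62 and 52 at 38539 peaks.

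The 646 windows held 2266 peaks, 3.49% of the daunorubicin list and 7.52% of the 30114 peaks that no untreated peak overlapped, although 2 of the 2266 reached past a window edge and touched an untreated peak there. These peaks were narrow, with a median width of 451.5 bp (quartiles 296 and 728.75) and a median score of 26 (19 and 38). Daunorubicin peaks without an untreated partner outside these windows had almost the same values, 434 bp and 26, whereas peaks shared with the untreated library had medians of 1099 bp and 74. Of the 2266 peaks, 93 scored above that shared median. Per window, peaks covered a median of 1835.5 bp (649 to 5403), and over all windows 3.97% of the length. The highest-scoring peak of a window had a median score of 42 (16 to 257), and 326 windows (50.5%) held a peak above the daunorubicin median of 41. The median gap between neighbouring peaks was taken within each window, and the median of these values over the windows was 7867 bp.

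Most daunorubicin-only windows lay beside chromatin that was marked in untreated cells. The edge of the window was a median of 16485 bp from the nearest untreated peak (quartiles 5819.75 and 41991 bp). An untreated peak lay in the adjoining window on both sides of 253 windows (39.2%) and on 1 side of 250 (38.7%), and 143 windows (22.1%) had none in either neighbour. One lay on both sides of 58.5% of the windows with 3 or more daunorubicin peaks and an untreated peak, of 20.3% of those with 1 or 2 daunorubicin peaks and no untreated peak and of 18.3% of all 60608 windows. The 50 kb on each side of a daunorubicin-only window held a median of 5 daunorubicin peaks covering 3733 bp and 2 untreated peaks covering 1733 bp. The stretch free of untreated peaks that surrounded a window was a median of 149.192 kb long, and 60 windows (9.29%) had no untreated peak within 100 kb.

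The windows were scattered along the genome more often than joined. Joining adjacent windows gave 621 domains, of which 599 were a single window, 19 were 2 windows and 3 were 3 windows long. The share of a chromosome's windows ran from 0.554% on chromosome 16 (10 windows, interval 0.301 to 1.02) to 1.69% on chromosome 12 (45 windows, 1.26 to 2.25), with 1.64% on chromosome 6 and 1.5% on chromosome 17. Among windows with 3 or more daunorubicin peaks, the share without an untreated peak was 2.21% on chromosome 19, 2.76% on chromosome 16 and 10.7% on chromosome 13.

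The longest domains were all on chromosome 1 and spanned 150 kb each. The first (160800001 to 160950000) held 13 daunorubicin peaks covering 10313 bp and no untreated peak. It took in LY9 and CD244, which encode SLAM family receptors of lymphocytes and natural killer cells, and the intelectin genes ITLN1 and ITLN2, whose products bind carbohydrates of microbes. Its widest peak, of 2002 bp, lay at 160843889 to 160845890 within CD244 with a score of 78, and its highest-scoring peak, 125, at 160948107 to 160949270 within ITLN2. The stretch free of untreated peaks around this domain was 221.336 kb. Neither CD244 nor ITLN2 had an untreated peak anywhere in the gene, with 3 daunorubicin peaks in each.

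The second domain (88700001 to 88850000) lay within and beyond PKN2, which encodes a protein kinase, and held 12 daunorubicin peaks covering 6264 bp. Over its whole length PKN2 had 14 daunorubicin peaks and 1 untreated peak, and its start was marked in both libraries. The highest score in the domain, 104, belonged to a peak of 404 bp. The remaining 150 kb domain (8150001 to 8300000) held no protein-coding gene and overlapped the long noncoding RNA genes LINC01714 and LINC03154. It held 12 peaks covering 7260 bp, with a highest score of 86. Of the 19 domains of 100 kb, 4 held 9 peaks each, at CUBN and TRDMT1 on chromosome 10 (7647 bp covered), on chromosome 10 from 29000001 (7132 bp), on chromosome 8 from 124200001 (5967 bp) and on chromosome 6 from 119500001 (5427 bp). CUBN encodes cubilin, an uptake receptor of vitamin B12 with intrinsic factor, and TRDMT1 a transfer RNA methyltransferase.

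**Figure D3:**
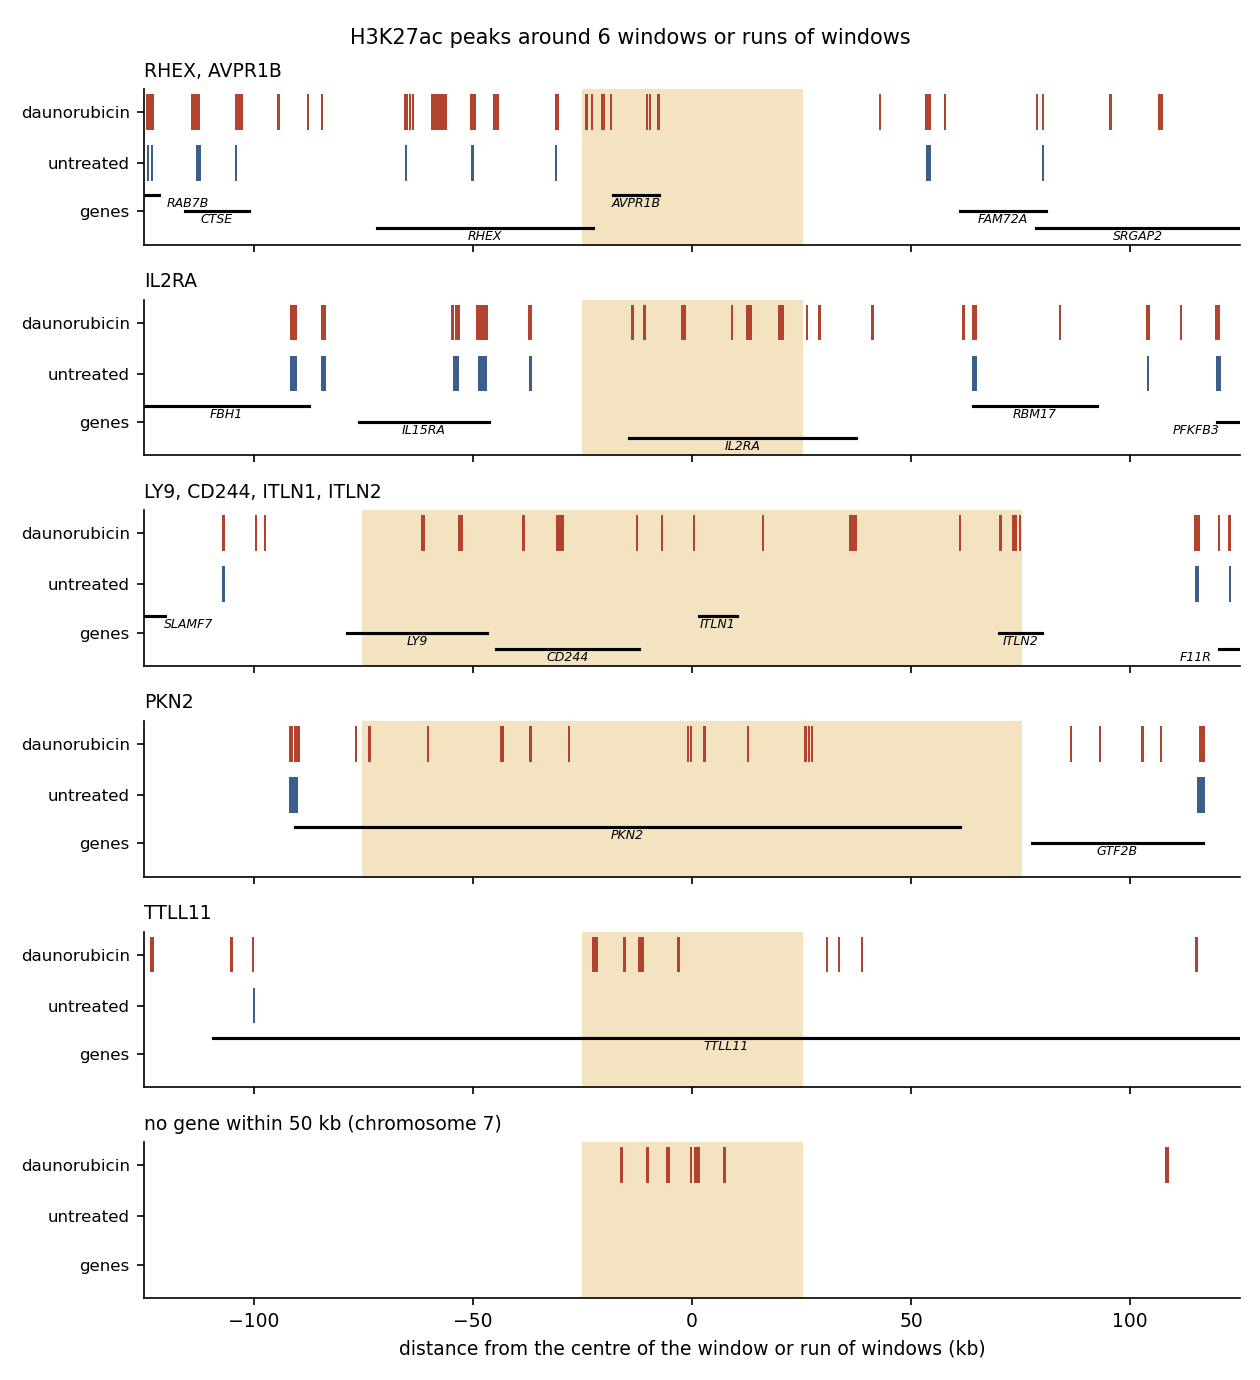
H3K27ac peaks of the daunorubicin library (upper row of each panel) and the untreated library (lower row), with protein-coding genes below, against distance in kb from the centre of 4 single windows and 2 runs of 3 windows (shaded). Peaks under 500 bp are drawn 500 bp wide; the shaded areas hold 7, 7, 13, 12, 4 and 6 daunorubicin peaks from top to bottom and no untreated peak.

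Among single windows, 3 held 7 daunorubicin peaks. The window at 6000001 to 6050000 on chromosome 10 lay in IL2RA, which encodes the alpha chain of the interleukin 2 receptor. Its peaks covered 4776 bp and scored 11 to 45. The whole gene held 9 daunorubicin peaks and no untreated peak, and its start was unmarked in both libraries. The window at 206100001 to 206150000 on chromosome 1 spanned the end of RHEX, a regulator of erythropoietin signalling in red cell precursors, and the whole of AVPR1B. Its peaks covered 3646 bp and scored 20 to 80, and RHEX itself held 9772 bp of peaks with daunorubicin, against 1024 bp in untreated cells. The window at 49900001 to 49950000 on chromosome 14 held 3774 bp of peaks, scoring 18 to 39, and lay 2946 bp from ARF6, a small GTPase gene of membrane traffic. In the 50 kb on either side it had 9 daunorubicin peaks and 11 untreated peaks.

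Windows with 6 peaks included one on chromosome 12 (25850001 to 25900000) around the microRNA gene MIR4302, where the covered length of 5403 bp was the longest of the 646. Of 1558 microRNA hairpins on these chromosomes, 11 lay in a daunorubicin-only window. None lay within 1 kb of a peak there, and MIR4302 was the nearest at 1359 bp. For scale, such windows were 1.07% of all windows, and their peaks covered 3.97% of their length. A window on chromosome 7 (84650001 to 84700000) held 6 peaks of score 21 to 52 with no peak of either library in the 50 kb on both sides, and its nearest gene was LINC03017 at 65682 bp. The window in MACF1, which encodes a linker of microtubules and actin, held 6 peaks covering 4006 bp, and that gene had 41 daunorubicin and 19 untreated peaks in all. A window in ARHGAP25, a Rac regulator of blood cells, held 6 peaks covering 3904 bp, with a peak of score 171. One at TPRXL on chromosome 3 had 6 peaks and lay 123554 bp from the nearest untreated peak. Windows on chromosome 5 from 10500001, on chromosome 7 from 91600001, on chromosome 1 from 212450001 and at CUBN and TRDMT1 also held 6 peaks, over 3469 to 4157 bp. Of the 18 windows with 6 peaks, the 9 named here were those with the longest covered length.

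The highest score in any daunorubicin-only window, 257, belonged to a peak of 1254 bp on chromosome 12 (98438955 to 98440208). Its window had 2 other peaks, of score 41 and 55, and its nearest protein-coding gene was TMPO at 65572 bp. A peak of score 170 lay in the window of ZNF609 and OAZ2 on chromosome 15, and one of 144 in TTLL11, which encodes an enzyme that adds glutamate chains to tubulin. In the TTLL11 window the 4 peaks scored 144, 24, 61 and 50, and the nearest untreated peak was 74689 bp from the edge. TIAM2, which encodes an activator of the GTPase Rac, had adjacent peaks of score 142 and 99 in a window 53936 bp from any untreated peak. In the window of IL12B, which encodes a subunit shared by interleukins 12 and 23, the 3 peaks scored 126, 123 and 59. None of these peaks lay in IL12B itself, where the peaks of either library covered 0 bp. The gene is on the minus strand and reaches to 159330487. The peak of score 123 (159331529 to 159331917) lay upstream of it, just outside the 1 kb used for starts. Scores of 138 and 127 were reached at the noncoding LOC105371742 and near LOC107984174, and the FBXW7 window equalled that of IL12B at 126.

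Of the 6 windows farthest from untreated H3K27ac, 4 held no protein-coding gene. One on chromosome 11 (80550001 to 80600000) held 3 peaks of score 22 to 36 and was 1974281 bp from the nearest untreated peak. Its 3 peaks all lay between 80593698 and 80595830. One on chromosome 4 (46450001 to 46500000) held 4 peaks of score 14 to 19 at 962994 bp. A window in SYNE1, which encodes a giant protein of the nuclear envelope, reached a score of 94 at a distance of 731327 bp. The windows in PSD3 and on chromosomes 12 and 2 from 125950001 and 122700001 held 3 peaks each, with highest scores of 20, 28 and 34. The peaks of the chromosome 12 and 2 windows were also close together, at 125983092 to 125984981 and 122736095 to 122738397.

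Daunorubicin-only windows overlapped protein-coding genes at a share between those of sparser and of shared windows, and most held no gene start. With equal numbers of peaks the share over the 62 windows, 58.1% (45.7 to 69.5), contained that of all windows in its interval. A protein-coding gene overlapped 461 of 646 (71.4%, 67.8 to 74.7), against 84.5% of the 9788 windows with 3 or more daunorubicin peaks and an untreated peak, 63.4% of the 5044 with 1 or 2 daunorubicin peaks and no untreated peak and 55.3% of all windows. A window lay wholly inside 1 protein-coding gene in 40.4% of cases (36.7 to 44.2), against 21.6%, 31.0% and 24.5% in the same sets. A protein-coding start lay in 16.4% (13.8 to 19.5), against 52.1%, 17.4% and 21.2%. Of the 2266 peaks, 11.3% were within 1 kb of the end of a gene of any biotype, 62.4% were elsewhere in a gene and 26.3% were intergenic. Daunorubicin peaks without an untreated partner elsewhere had nearly the same shares (12.5%, 60.5% and 27%), and shared peaks had 42.2%, 40.4% and 17.5%. The peaks were a median of 59.1 kb from a protein-coding start, against 35.7 kb for such peaks elsewhere and 16.4 kb for shared peaks. The rule itself requires windows without an untreated peak, and most starts with H3K27ac were marked in untreated cells.

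The genes that these windows overlapped were often marked at a start in untreated cells. A gene with an untreated peak at a start overlapped 284 windows (44.0%, 40.2 to 47.8), a gene whose starts were marked with daunorubicin but not in untreated cells 44 (6.81%) and a gene with unmarked starts 66 (10.2%). Over all 60608 windows these shares were 28.1%, 2.37% and 16.1%, and over the 5044 windows with 1 or 2 daunorubicin peaks and no untreated peak they were 29.4%, 7.38% and 16.3%. The starts of the genes at 67 windows were not in the table, and 185 windows (28.6%) held no protein-coding gene. Windows at genes with an untreated peak at a start were a median of 11173 bp from untreated H3K27ac, those at genes marked with daunorubicin alone 50640 bp and those at unmarked genes 22755 bp. Their highest scores differed little, with medians of 40, 40 and 45, and the windows without a protein-coding gene had a median of 45.

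**Figure D4:**
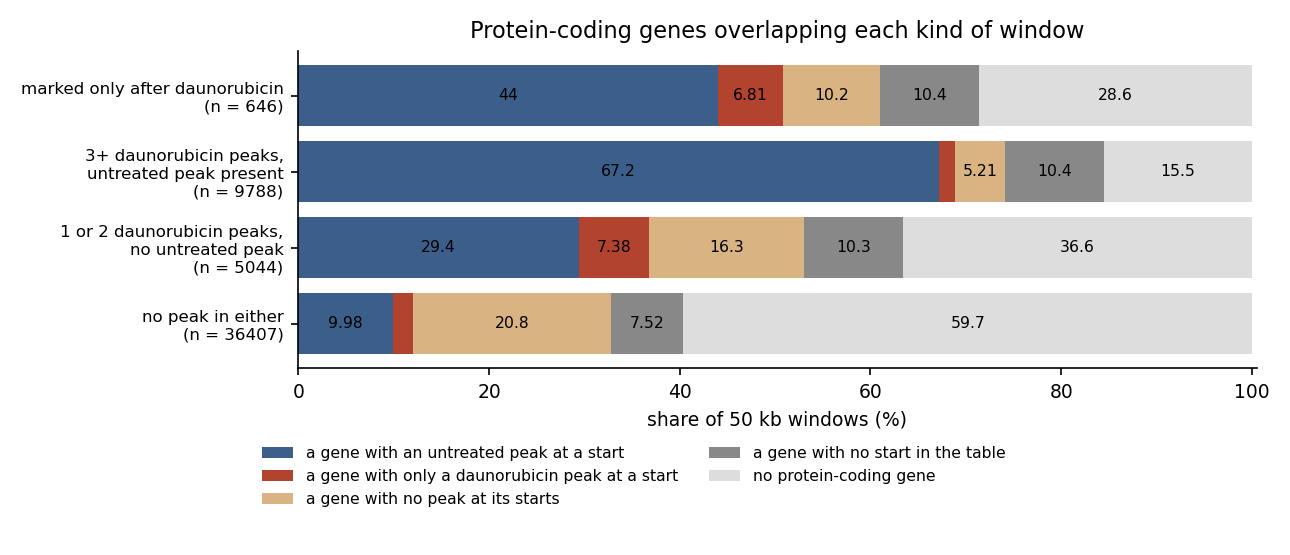
Share of 50 kb windows (%) by the protein-coding gene they overlap and by H3K27ac within 1 kb of that gene's starts, in 4 kinds of window. A window with several genes is counted once, first by an untreated peak at a start, then by a daunorubicin peak alone, then by unmarked starts. Daunorubicin-only windows, in the top bar, had a gene with an untreated peak at a start in 44.0%, against 67.2% of windows with 3 or more daunorubicin peaks and an untreated peak and 9.98% of windows with no peak.

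In all, 522 protein-coding genes overlapped a daunorubicin-only window (2.61% of 19974), with a median length of 106.453 kb against 24.1705 kb for all genes. Any set of windows meets long genes more often, so a greater length was built into this choice and is no result about these windows. Of the 310 that reached into a window with no start there, 249 (80.3%, 75.5 to 84.4) had starts marked in both libraries. A further 12 had starts marked with daunorubicin alone and 47 in neither. Each library was counted over all starts of a gene, so both could mark different ones. Over all 15812 genes with a start in the table, 60.8% were marked in both. Among genes of 100 kb or more the shares were 81.2% of 202 that reached into a window and 59.8% of all 2757. Of the 121 genes that started in a window, 43 (35.5%) had starts marked with daunorubicin alone and 50 (41.3%) had none marked. The other 28 (23.1%) had starts marked in both libraries, which need not be the same start. Over all 15812 genes the shares were 4.01%, 34.5% and 60.8%. The rule itself allows no untreated peak in the windows where these 121 genes started.

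More than 1 daunorubicin-only window overlapped 29 of the 522 genes, of which 19 had starts marked in both libraries. Over all 15812 genes with a start in the table that share was 60.8%, and RERE, VPS13B and ASAP1, among the 29, had no start there. Long genes can be met by more windows, and the 29 have no background of genes of like length. FAF1, which encodes a ubiquitin-binding adaptor, was met by 3 windows with 10 peaks and held 23 daunorubicin and 6 untreated peaks in all. KDM6A, which encodes a demethylase of H3K27, had 8 peaks in 2 windows (16 and 4 in all), and KMT2C, which encodes a methyltransferase of H3K4 at enhancers, had 6 (21 and 7). FBXW7 had 7 (15 and 5) and PRKCA, a protein kinase C gene, 7 (26 and 16). TMEM154 had 5 daunorubicin peaks in 2 windows and no untreated peak in the whole gene. These genes were chosen for this text after their values were seen.

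No untreated peak lay anywhere in 148 of the 522 genes, and 51 of those held 3 or more peaks of daunorubicin-only windows. Besides IL2RA and TMEM154 they included COL6A6, a collagen VI chain gene, with 5, and with 4 each IFI16, MS4A4E, PDZK1 (a scaffold of membrane transporters) and PRKCH (a protein kinase C gene). PRKCH, PDZK1 and COL6A6 were chosen after their values were seen. The rule favours such genes, since it asks for no untreated peak in 50 kb. No count of such genes over the whole genome is given here, so the 148 and 51 have no background.

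Lists of genes by function were set beside the whole genome. Of all protein-coding genes, 5.08% lay within 50 kb of a daunorubicin-only window (1014 of 19974), and of the 451 entries in 18 lists, 18 did. Developmental transcription factors had 5 of 30 (16.7%, 7.34 to 33.6): SOX5, SOX6, PAX2, LHX2 and NR2F1. SOX6, which takes part in the switch between fetal and adult globin, had a start marked in both libraries and peaks over 43623 bp with daunorubicin and 21597 bp without it. SOX5 had no marked start and peaks over 10250 bp and 3823 bp, and LHX2 and NR2F1 had 259 bp and 1223 bp with daunorubicin and 0 bp without it. PAX2, a kidney factor, had no peak in the gene in either library, and its window lay 35395 bp away. With equal numbers of peaks in both lists no gene of this list lay within 50 kb of the 62 windows, and of all 18 lists RHEX and IL12B did. Of all protein-coding genes 0.471% lay that near.

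Cytokines and chemokines had 3 of 30 (10.0%, 3.46 to 25.6), namely IL1A, IL1B and IL12B. IL1A and IL1B, the neighbouring interleukin 1 genes, shared 1 window with 3 peaks covering 649 bp, the shortest covered length of the 646, and IL1A had a start peak with daunorubicin alone. Antioxidant genes of the NRF2 factor had 2 of 25, TXNRD1 and GCLC, each with starts marked in both libraries. Neuronal adhesion genes had 2 of 30, CTNNA2 and CDH12, and the CDH12 window lay 340081 bp from the nearest untreated peak. Single genes were found in the lists for erythroid cells (RHEX, of 30), megakaryocytes (RUNX1, of 26), NF-kB targets (NFKB1, of 20), neuronal channels (KCNQ5, of 30), drug transport (SLC22A16, of 16) and signalling receptors (BMPR1B, of 30). RUNX1, a core factor of blood cell formation, had peaks over 21736 bp with daunorubicin and 11971 bp without it, of which its window held 3 peaks and 1784 bp.

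No gene lay within 50 kb in the lists of p53 targets (22 genes), AP-1 and immediate early genes (22), aldehyde dehydrogenases (19), retinoid genes (18), interferon-induced genes (21), matrix and TGF-beta genes (30), myeloid genes (26) and lymphoid genes (26). The lymphoid and interferon lists did not hold LY9, CD244, IL2RA or IFI16, named above, which overlapped daunorubicin-only windows. The intervals of these empty lists reached 11.4% to 17.6%, so they contained the background of 5.08%. Of 105 genes of any biotype named as interleukins or their receptors, 11 (10.5%, 5.95 to 17.8) lay within 50 kb, against 4.29% of 59098 genes of any biotype. They made up few places, since IL2RA, its antisense gene and IL15RA, IL12B and its antisense gene, IL1A and IL1B, and IL23R and IL12RB2 are neighbours. Olfactory receptor genes had 13 of 875 (1.49%) and genes named ZNF 14 of 684 (2.05%). The interleukins had the highest share of all families counted by symbol, so theirs is the top of many comparisons. SLC transporters had 5.23%, LINC genes 4.34%, microRNA genes 3.18% and potassium channels 2.34%. Several families had none, among them 82 protocadherins and 113 keratin-associated proteins.

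**Figure D5:**
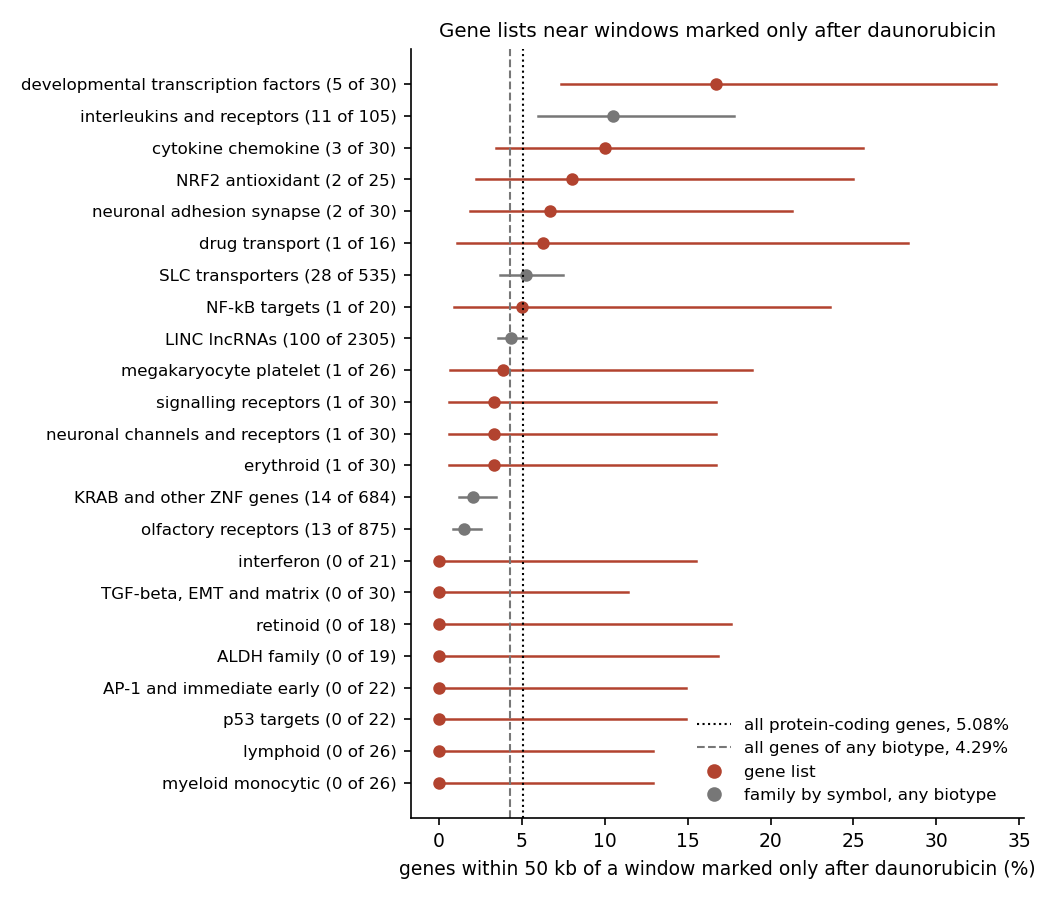
Share of genes (%) within 50 kb of a daunorubicin-only window, for the 18 gene lists and for 5 families named by symbol, with 95% Wilson intervals, beside all protein-coding genes (5.08%, dotted, for the lists) and genes of any biotype (4.29%, dashed, for the families). The 5 families are a choice from those counted, and the interleukins had the highest share of all of them. The intervals of the developmental transcription factors (7.34 to 33.6) and of the interleukins (5.95 to 17.8) lie above their lines with the full peak lists. With equal numbers of peaks no developmental factor was left.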

How the data were processed

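H3K27ac ChIP-seq and input libraries of K562 cells, 1 per condition, were analysed from the peak list deposited for each. The submitters' processing notes name MACS2 2.1.1, Bowtie2 2.3.4.3 and deepTools 3.2.1, with no role or parameters, and the builds hg19 and hg38. Sequence names in the lists are those of hg38, and coordinates count from 1. The only value in the deposited files is a score per peak, made by the authors, computed in a way that the labels and files do not state. Peaks were called separately per library, and depth is unknown.

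Windows of 50 kb were laid from position 0 to the last one holding a peak or a gene. Gene positions, promoters and microRNAs came from RefSeq tables of GRCh38.p14. Starts were those of the promoter table, which covered 15812 of 19974 protein-coding genes and none on chromosome 8. A gene with several starts counted as marked if any had a peak within 1 kb, for each library on its own. Starts of a gene marked in both libraries could therefore be different ones. All 451 list entries (449 genes) matched by symbol.

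No test between conditions was possible. Intervals are 95% Wilson intervals and cover counting error only. The windows, gene lists and families were chosen with earlier results of these data known. Named windows were those with the most peaks (12), the highest scores (8), the largest distance (6), the longest domains (6), up to 20 start peaks and up to 4 genes per list. Some genes are not reported here. Scores ranked peaks within 1 list, except under the common score threshold. Alternatives changed the window grid, the peak threshold, the joining of close peaks, the scores, the input and edge rules and the gene annotation. The 4 shorter daunorubicin lists were chosen after seeing the data. Window counts were tested on simulated data against bedtools 2.31.1. Python 3.11.15, numpy 2.4.6 and pandas 2.3.3 were used.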

Additional observations from a re-analysis of the deposited data

How the results depend on the processing

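No paired analysis was possible because each condition had 1 H3K27ac library, and for the same reason no replicate could be left out. The number of daunorubicin-only windows was 646, and the number under the exchanged rule 5. Windows of 100 kb gave 415 and 1, and a grid shifted by 25 kb gave 675 and 4. Which windows were found depended on the grid: those of the shifted grid overlapped 305 of the 646 (47.2%), windows of 25 kb 336 (52%) and windows of 100 kb 273 (42.3%). At least 2, 4 or 5 peaks gave 1904, 228 and 76 windows against 20, 1 and 0. Joining peaks with a gap of up to 1 kb gave 450 against 5, and all 450 were among the 646 (69.7%). A score of at least 43 in both lists gave 291 against 0, of which 24 were among the 646. Equal numbers of peaks gave 62 against 52. Requiring each counted peak to reach the median of its own list gave 29 against 0, and requiring no peak of the other list within 50 kb gave 143 against 0. The 55000, 50000 and 45000 highest-scoring daunorubicin peaks gave 339, 219 and 126 against 9, 14 and 25. The exchanged count was also 3 in windows of 25 kb and 8 with 60000 peaks.

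The share overlapping a protein-coding gene, 71.4%, was 66.5% on a grid shifted by 25 kb, 65.8% in windows of 25 kb, 61.8% with 5 or more peaks, 65.6% under the common score, 58.1% with equal numbers, 58.6% above the median score and 61.5% with no untreated peak within 50 kb. It was 64.9%, 63.9% and 61.9% with 55000, 50000 and 45000 peaks, and 90.7% for genes of any biotype. The intervals with equal numbers (45.7 to 69.5) and above the median score (40.7 to 74.5) contained the 55.3% of all windows. The share of peaks at a gene end, 11.3%, was 10.0% on the shifted grid, 9.08% in windows of 25 kb, 9.41% with 5 or more peaks, 13.8% with equal numbers, 14.4% above the median score, 13.7% with no untreated peak within 50 kb, 13.4% with 45000 peaks and 19.2% with ends of 2.5 kb. Of the gene list entries, 18 lay within 50 kb, 13 overlapped a window, and 2 lay near a window with equal numbers of peaks. The cause of these changes was not tested, beyond the fewer peaks that the score settings keep.

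The unknown depth limits the windows directly: an untreated peak just below the calling threshold leaves a window in the set, and the median score of the 2266 peaks, 26, was below that of the whole list, 41.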
